A study of Mus musculus with 2 samples.

Results

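The genes described are 9 core genes of the transforming growth factor beta (TGF-beta) pathway, of 32285 genes counted in cells from tumor-bearing mouse lungs. They were chosen by gene symbol in both count matrices and are the ligands Tgfb1, Tgfb2 and Tgfb3, the ligand-binding protein Ltbp1, the receptors Tgfbr1 and Tgfbr2, and the intracellular mediators Smad2, Smad3 and Smad7. Each symbol matched 1 row in each matrix. On GRCm38 with the GENCODE vM21 annotation, all 9 are protein-coding genes: Tgfb1 on chromosome 7 (25687002 to 25705077), Tgfb2 on chromosome 1 (186622792 to 186705989) and Tgfb3 on chromosome 12 (86056745 to 86079041). Ltbp1 lies on chromosome 17 (75005568 to 75392512), Tgfbr1 on chromosome 4 (47353222 to 47414931) and Tgfbr2 on chromosome 9 (116084293 to 116175360). Smad3 lies on chromosome 9 (63646767 to 63757994) and both Smad2 (76241580 to 76310963) and Smad7 (75367529 to 75395935) on chromosome 18.

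As background, TGF-beta ligands leave the cell in a latent form, often tied to a latent TGF-beta binding protein such as LTBP1, and are released from it by integrins, proteases or matrix tension. Free ligand binds TGFBR2, which recruits and phosphorylates TGFBR1, and TGFBR1 then phosphorylates SMAD2 and SMAD3, which enter the nucleus with SMAD4. SMAD7 is an inhibitor of the receptor that is itself induced by the signal and by other cues. In the lung the pathway is known for matrix production by fibroblasts and for restraint of T cells and NK cells, and release of the ligand and phosphorylation of the SMADs act on protein, while the data here are RNA counts.

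The cells came from the lungs of female BALB/cJ mice aged 12 weeks, all of which carried tumors of 4T1, a mouse mammary carcinoma line that spreads to the lung. Each mouse had received 100000 4T1 cells, and lungs were taken at day 14. One group was injected with saline and the other with cargo-free poly(lactide-co-glycolide) nanoparticles (NPs), both into a vein every 3 days from day 1. The lungs of 4 mice per group were pooled by the labels, while the study's methods give another number, so there was 1 single-cell library per group and no healthy or untreated lung among the samples.

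Barcodes with 500 to 5000 detected genes and under 7.5% mitochondrial counts were kept as cells. This left 8662 cells and 77814108 UMIs (unique molecular identifiers, each standing for 1 captured RNA molecule) in saline, and 8333 cells and 72383286 UMIs in NP. The median was 6474.5 and 6008 UMIs per cell, and 21 barcodes occurred in both libraries. A level is given as CPM, the UMIs of a gene per 1000000 UMIs of the class it was counted in, with the saline value first wherever a pair of values is given. With 1 library per group there was no test. Every interval is an exact 95% interval for counting error alone, which leaves out differences between mice and uneven UMIs between cells. Intervals of ratios are written in parentheses on the log2 scale, and a gene is called higher or lower in a class when it had at least 50 UMIs over both libraries there and differed at least 1.5-fold. The share of all genes that passed the same limit in the same class is given beside counts at 1.5-fold.

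Cells were clustered on variable genes from which the 9 genes and 67 other genes of the pathway were removed, so that a level was not used to build its own class. Clusters were then named from marker genes, and every name stands for cells like that type. Neutrophil-like cells made up 5643 saline and 3141 NP cells, classical monocyte-like cells 679 and 1111, non-classical monocyte-like cells 103 and 401, and alveolar macrophage-like cells 167 and 224. There were 524 and 644 B cell-like, 466 and 381 T cell-like and 128 and 141 NK cell-like cells. General capillary endothelium-like cells numbered 425 and 1433, aerocyte-like capillary cells 33 and 154, fibroblast-like cells 94 and 137, and pericyte or smooth muscle-like cells 28 and 115. Plasmacytoid dendritic, innate lymphoid, basophil or mast, lymphatic endothelial, mesothelial, epithelial and erythroid classes held between 7 and 52 cells per library. One cluster of 63 saline and 86 NP cells had the complement genes C1qa, C1qb and C1qc of interstitial macrophages. On closer clustering it split into C1q-positive cells, several dendritic cell groups and small groups led by Prg4 and Alox15 or by Retnla and Lyz1. The C1q-positive cells also had neutrophil genes such as Ngp and Camp among their leading genes. The whole cluster is called the mixed macrophage and dendritic cluster here. The suffix "like" is left out from here on. A total of 102 saline and 129 NP cells in 3 clusters stayed unnamed.

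Tgfb1, the ligand most studied in immune cells, was highest in the mononuclear phagocytes of both libraries. Classical monocytes held 411 CPM in saline and 378 CPM in NP, non-classical monocytes 397 and 327 CPM, and alveolar macrophages 354 and 347 CPM. In saline the counting intervals did not separate classical from non-classical monocytes, or non-classical monocytes from alveolar macrophages. The next class, innate lymphoid cells at 253 CPM, lay below them. Only neighbors in the order were compared. Classical monocytes and alveolar macrophages were not neighbors in saline, so this pair was not compared there. In NP classical monocytes exceeded alveolar macrophages by a log2 ratio of 0.12 (0.04 to 0.21), and the other neighbors were not separated. Basophils or mast cells held 247 and 178 CPM, from 43 and 48 UMIs. Plasmacytoid dendritic cells held 234 and 235 CPM, and the mixed macrophage and dendritic cluster 225 and 218 CPM. Lymphocytes were lower, at 145 and 133 CPM in B cells, 149 and 151 CPM in NK cells and 75.5 and 96.2 CPM in T cells. General capillary cells held 104 and 125 CPM. Neutrophils held 58.7 and 59.6 CPM, and fibroblasts (19.1 and 34.3 CPM) and epithelial cells (17.5 and 20.1 CPM) were among the 3 lowest classes of each library.

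The other ligands had a different map, in which stromal and lining cells were high and neutrophils, monocytes and lymphocytes were low by level. Tgfb2 reached 118 CPM in saline and 63.8 CPM in NP in pericytes or smooth muscle cells and 92.7 and 136 CPM in mesothelial cells, the lining of the lung surface. Its counts were small, 15 and 44 UMIs in the first class and 37 and 13 UMIs in the second. Lymphatic endothelium held 1 and 14 Tgfb2 UMIs. The mixed macrophage and dendritic cluster held 31.8 and 86.2 CPM of Tgfb2, in NP more than pericytes or smooth muscle cells. It gave 19.0% of the saline and 34.2% of the NP Tgfb2 UMIs, from a few cells that are described with the comparison of the groups. Alveolar macrophages gave 15.6% and 14.1% at 7.93 and 10.9 CPM. Tgfb3 was found in the same lining and mural cells, at 95.2 and 62.7 CPM in mesothelial cells, 70.6 and 59.5 CPM in pericytes or smooth muscle cells and 36.2 and 36.7 CPM in fibroblasts. B cells held only 2.89 and 2.14 CPM of Tgfb3 (10 and 8 UMIs) but gave 10% and 6.25% of its UMIs. Monocytes gave 2% and 5.47%. The mixed macrophage and dendritic cluster gave 11% in saline (11 UMIs, and 2 in NP). General capillary cells gave 9.38% in NP (12 UMIs, and 2 in saline). Both had too few UMIs to be called higher or lower. In neutrophils Tgfb2 was counted 2 times in saline and 4 times in NP, and Tgfb3 2 times and 1 time, over 47673616 and 23754006 UMIs. Counts this low cannot separate the libraries.

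Ltbp1, the matrix protein that holds latent ligand, had several sources. Fibroblasts gave 41.4% of its saline and 28.8% of its NP UMIs, and general capillary cells 16.7% and 32.1%. By level, fibroblasts held 137 CPM in saline and 136 CPM in NP (72 and 111 UMIs), and general capillary cells held 15.2 and 20.6 CPM (29 and 124 UMIs). Mesothelial cells held 35.1 and 115 CPM (14 and 11 UMIs). The mixed macrophage and dendritic cluster held 47.7 and 74.8 CPM, all of it in a few cells that are described with the comparison of the groups. Classical monocytes had 0 and 4 UMIs and non-classical monocytes 0 and 0.

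The receptors were not highest in the same cells. Tgfbr1, the signaling kinase, was highest in alveolar macrophages at 184 CPM in saline and 206 CPM in NP, with plasmacytoid dendritic cells (174 and 113 CPM) and non-classical monocytes (157 and 110 CPM) next. In saline these 3 classes were not separated by their intervals, and all other classes were below 50 CPM. Classical monocytes held only 39.3 and 30.5 CPM, neutrophils 16.7 and 16.1 CPM and T cells 17.9 and 21.2 CPM. Tgfbr2, the receptor that binds ligand first, was high in fibroblasts (351 and 255 CPM), alveolar macrophages (313 and 320 CPM) and lymphatic endothelium (276 and 422 CPM, from 11 and 45 UMIs). Aerocyte capillary cells (165 and 142 CPM) exceeded general capillary cells (63.3 and 61.6 CPM). T cells and B cells held 103 and 97.2 CPM in saline and 89.8 and 92.7 CPM in NP, and neutrophils held 25.4 and 26.1 CPM. Alveolar macrophages were the class in which both receptor genes were among the 3 highest of 19 classes in both libraries. High levels of both were also found in the C1q-positive cells of the mixed cluster, which were not a class of their own. These 13 saline and 30 NP cells held 154 and 119 CPM of Tgfbr1 and 235 and 160 CPM of Tgfbr2. The neutrophil genes Ngp, Camp, Ltf, Lcn2 and S100a8 were also among their leading genes. The part of neutrophil RNA in these levels was not tested.

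The SMADs had separate patterns. Smad2, a mediator of the signal, lay at 15.04 CPM in saline and 15.9 CPM in NP in neutrophils, 29.9 and 28.7 CPM in classical monocytes, 32.4 and 36.2 CPM in alveolar macrophages, 27.7 and 28.3 CPM in T cells and 44.1 and 40.1 CPM in NK cells. Smad3, the other mediator, was highest in NK cells at 48.5 and 73.7 CPM (33 and 68 UMIs). Fibroblasts came close in saline, at 43.9 and 20.8 CPM (23 and 17 UMIs). T cells held 7.70 and 12.0 CPM and neutrophils 4.15 and 3.33 CPM. In alveolar macrophages Smad3 was counted 0 times in saline and 1 time in NP over 2900473 and 4305033 UMIs. The same macrophages were lowest for Smad7, at 5.52 and 8.13 CPM, and highest for Tgfbr1. The inhibitor Smad7 was highest in aerocyte (313 and 319 CPM) and general capillary endothelium (281 and 288 CPM). T cells (241 and 226 CPM) and pericytes or smooth muscle cells (275 and 219 CPM) came near them, and neutrophils held 19.1 and 20.2 CPM.

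**Figure D1:**
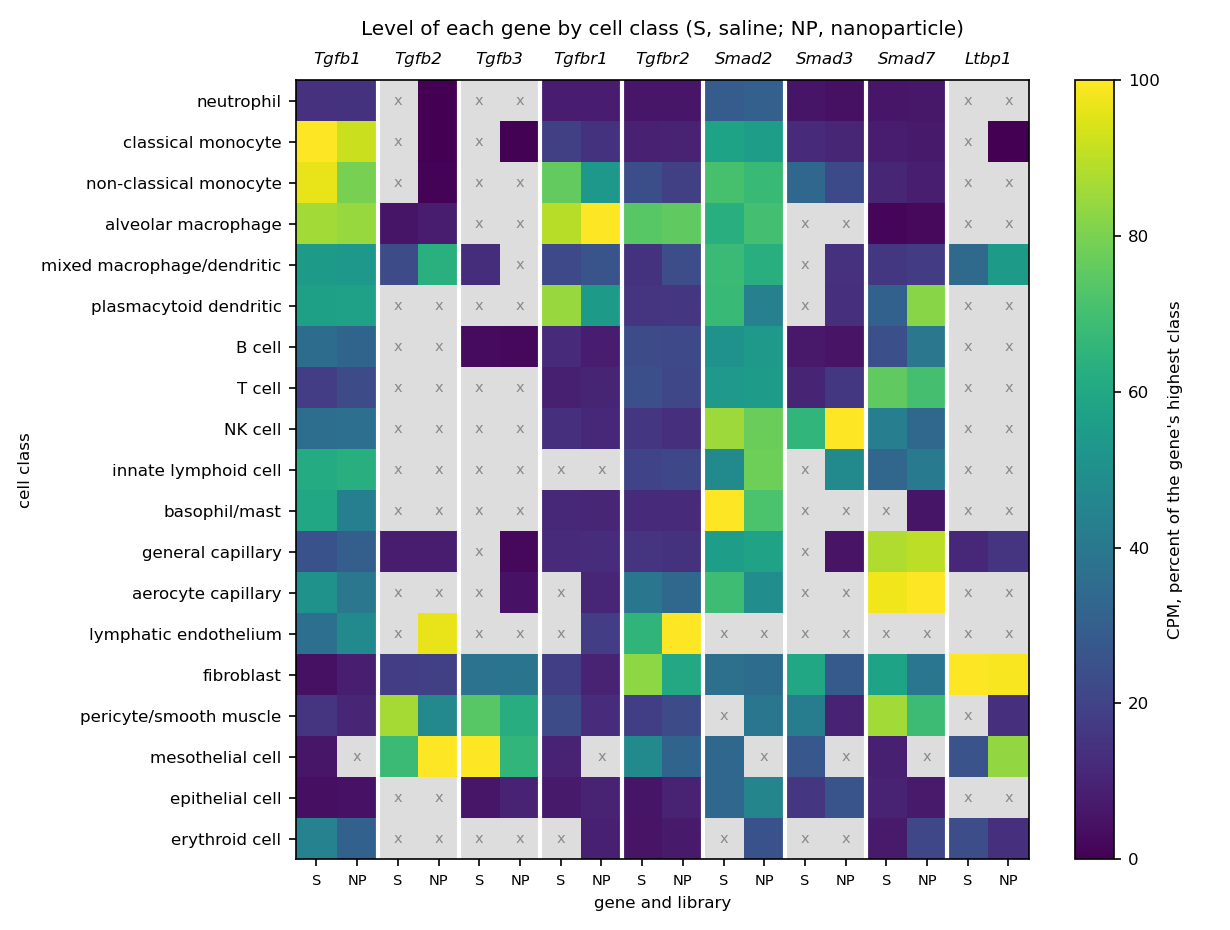
Level of the 9 genes (column pairs, saline then NP) in 19 cell classes (rows), as CPM in percent of the highest level that gene reached in a class with over 3 UMIs; a cross marks 3 UMIs or fewer. Tgfb1 is brightest in monocytes and alveolar macrophages, Tgfbr1 in alveolar macrophages, Ltbp1 in fibroblasts (137 and 136 CPM) and Smad7 in capillary endothelium, with like patterns in both libraries.

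Neutrophils were the most numerous class and were not uniform. By CPM, Tgfb1 was at 33.1 in saline and 34.1 in NP in the cluster with granule genes of young neutrophils (Camp, Ngp and Ltf) and at 125 and 122 in the cluster led by Saa3 and Il1b. The lowest cluster, led by Ngp and Stfa3, held 28.3 and 25.7 CPM. The cluster led by interferon-response genes (Cxcl10, Rsad2 and Isg15), with 83 saline and 750 NP cells, held 82.2 and 95.2 CPM. The young cells carried far more RNA. Their median was 23511 and 21548 UMIs per cell, against 3593 and 3746.5 in the Saa3 and Il1b cluster, and per cell the order of this pair turned round. Tgfb1 was counted 0.798 and 0.735 times per young cell and 0.467 and 0.476 times per cell of the Saa3 and Il1b cluster. It was counted 0.435 and 0.339 times per cell of the Ngp and Stfa3 cluster and 0.349 and 0.44 times per cell of the interferon-response cluster. Tgfbr1 was likewise higher by CPM in the Saa3 and Il1b cluster (38.1 and 28.8 CPM) than in the young one (6.11 and 6.30 CPM) while its count per cell was 0.143 and 0.112 against 0.147 and 0.136. A share of RNA and a number of molecules per cell therefore order these clusters differently, and how completely RNA is captured from each kind of cell was not tested.

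**Figure D2:**
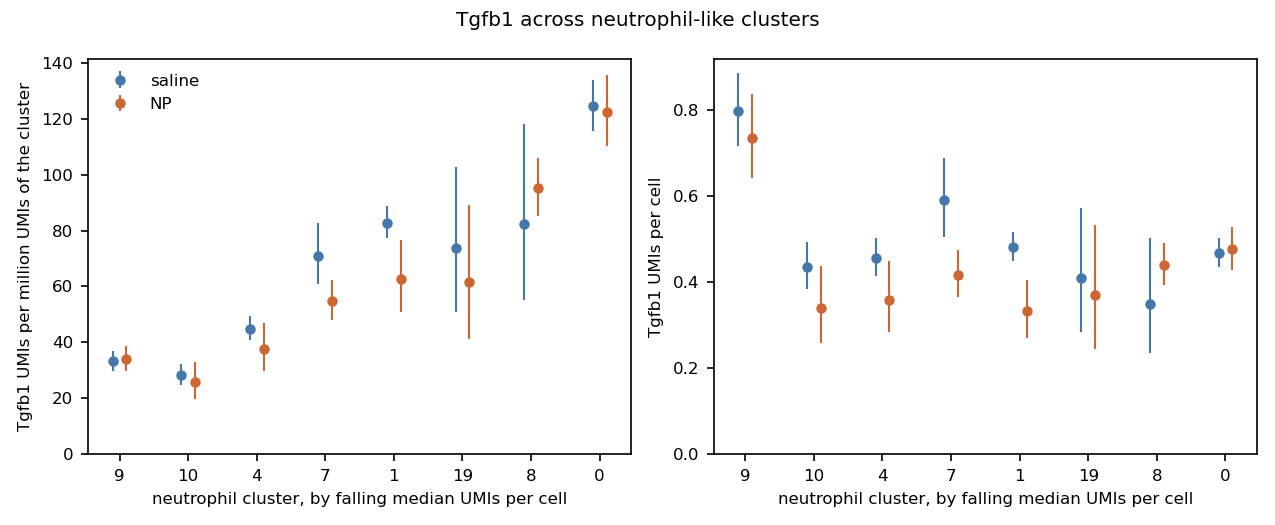
Tgfb1 in 8 neutrophil clusters (x axis, ordered by falling median UMIs per cell) as CPM (left) and as UMIs per cell (right), with points for saline and NP and bars for the 95% Poisson interval. By CPM the level is 33.1 and 34.1 in cluster 9 and 125 and 122 in cluster 0, while per cell cluster 9 is the highest at 0.798 and 0.735.

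Over all cells together, all 9 genes took a larger share of the RNA in the NP library. Tgfb1 was at 137 CPM in saline and 194 CPM in NP, a log2 ratio of 0.50 (0.47 to 0.54). Smad7 was at 42.5 and 67.7 CPM, a log2 ratio of 0.67 (0.61 to 0.74), Tgfbr1 at 29.1 and 38.5 CPM, 0.40 (0.32 to 0.49), and Tgfbr2 at 50.9 and 67.0 CPM, 0.40 (0.34 to 0.46). Tgfb2 (147 and 333 UMIs) and Ltbp1 (174 and 386 UMIs) had the largest ratios, 1.28 (1.00 to 1.57) and 1.25 (0.99 to 1.52). Smad2 (0.29), Smad3 (0.25) and Tgfb3 (0.46) completed the set, and 3 of the 9 genes (Tgfb2, Smad7 and Ltbp1) passed 1.5-fold, all upward. This moved with the whole transcriptome: 33.7% of the 14250 genes with at least 50 UMIs passed 1.5-fold upward in NP, and the median log2 ratio of all of them was 0.39, against 0.46 for the 9 genes. Relative to that median, Smad2 and Smad3 were at -0.09 and -0.13, and Tgfbr1 and Tgfbr2 were at 0.02 and 0.01.

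The class shares differed between the libraries. Neutrophils gave 61.3% of saline UMIs and 32.8% of NP UMIs, and S100a8 and S100a9, the abundant granulocyte calprotectin genes, gave 18.9% and 11.2%. When the NP levels of each class were weighted by the saline class shares, the log2 ratio of Tgfb1 became -0.06, that of Tgfbr1 -0.09, of Tgfbr2 -0.02, of Smad2 0.04, of Smad3 -0.08, of Smad7 0.06 and of Tgfb3 -0.27. Over all genes the same weighting gave a median of -0.05. Tgfb2 and Ltbp1 kept 0.60 and 0.50 after weighting to the saline shares, and 0.27 and 0.34 with the levels of both groups weighted by the NP shares. The sources of the RNA shifted accordingly. Neutrophils gave 26.3% of the saline and 10.1% of the NP Tgfb1 UMIs, monocytes 45.0% and 58.8%, and endothelium gave 18.4% and 42.5% of the Smad7 UMIs.

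**Figure D3:**
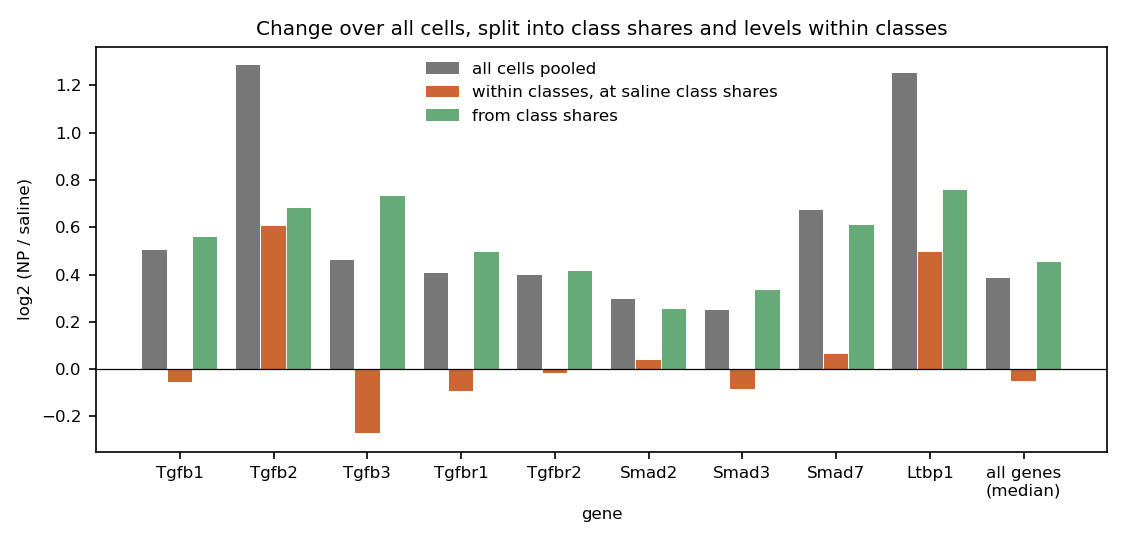
Log2 ratio of NP over saline for each gene (x axis) over all cells, and its split into the part within classes (NP levels at saline class shares) and the part from class shares; the last group is the median of all genes. The gray bars are all above 0, from 0.25 for Smad3 to 1.28 for Tgfb2, and the orange bars lie between -0.27 and 0.06 except those of Tgfb2 (0.60) and Ltbp1 (0.50).

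Within classes the same genes were compared pair by pair. Of 75 pairs of gene and class with at least 50 UMIs, 12 passed 1.5-fold, 9 higher and 3 lower in NP. The counting interval excluded 0 in 6 of these and in 15 of the 75. The share of all genes with such an interval was not computed, so these counts are not a result about the 9 genes. The share of all genes past 1.5-fold ran from 5.26% to 39.2% over the 19 classes. In neutrophils 0 of 6 genes with enough UMIs passed, against 14% of 9470 genes. Tgfb1 had a log2 ratio of 0.02 (-0.07 to 0.11), Tgfbr1 -0.05 (-0.23 to 0.13), Tgfbr2 0.04 (-0.10 to 0.18), Smad2 0.08 (-0.11 to 0.26) and Smad7 0.08 (-0.09 to 0.24) there. Smad3 was at -0.32 (-0.72 to 0.06). The median of all genes in neutrophils was -0.14, so that relative to it Tgfb1 lay at 0.16. The sign of the Tgfb1 value also depended on how cells were weighed: with each cluster kept at its saline share it was -0.18, and Tgfb1 was lower in NP in 6 of 8 neutrophil clusters, by as much as -0.40 (-0.72 to -0.09) in the cluster of 1714 saline and 292 NP cells. In alveolar macrophages 0 of 6 passed (5.26% of all genes), with Tgfb1 at -0.03, Tgfbr2 at 0.03 and Smad2 at 0.16. Tgfbr1 was at 0.17 (0.01 to 0.32) there. Smad7 (16 and 35 UMIs) was at 0.56 (-0.33 to 1.51) and Tgfb2 (23 and 47 UMIs) at 0.46 (-0.29 to 1.25). In general capillary endothelium 0 of 7 passed (10.3% of all genes), with Smad7 at 0.03 (-0.11 to 0.18) and Tgfb1 at 0.27 (0.04 to 0.50). Smad7 in these capillary cells became 0.32 when the mitochondrial limit was set at 5%.

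**Figure D4:**
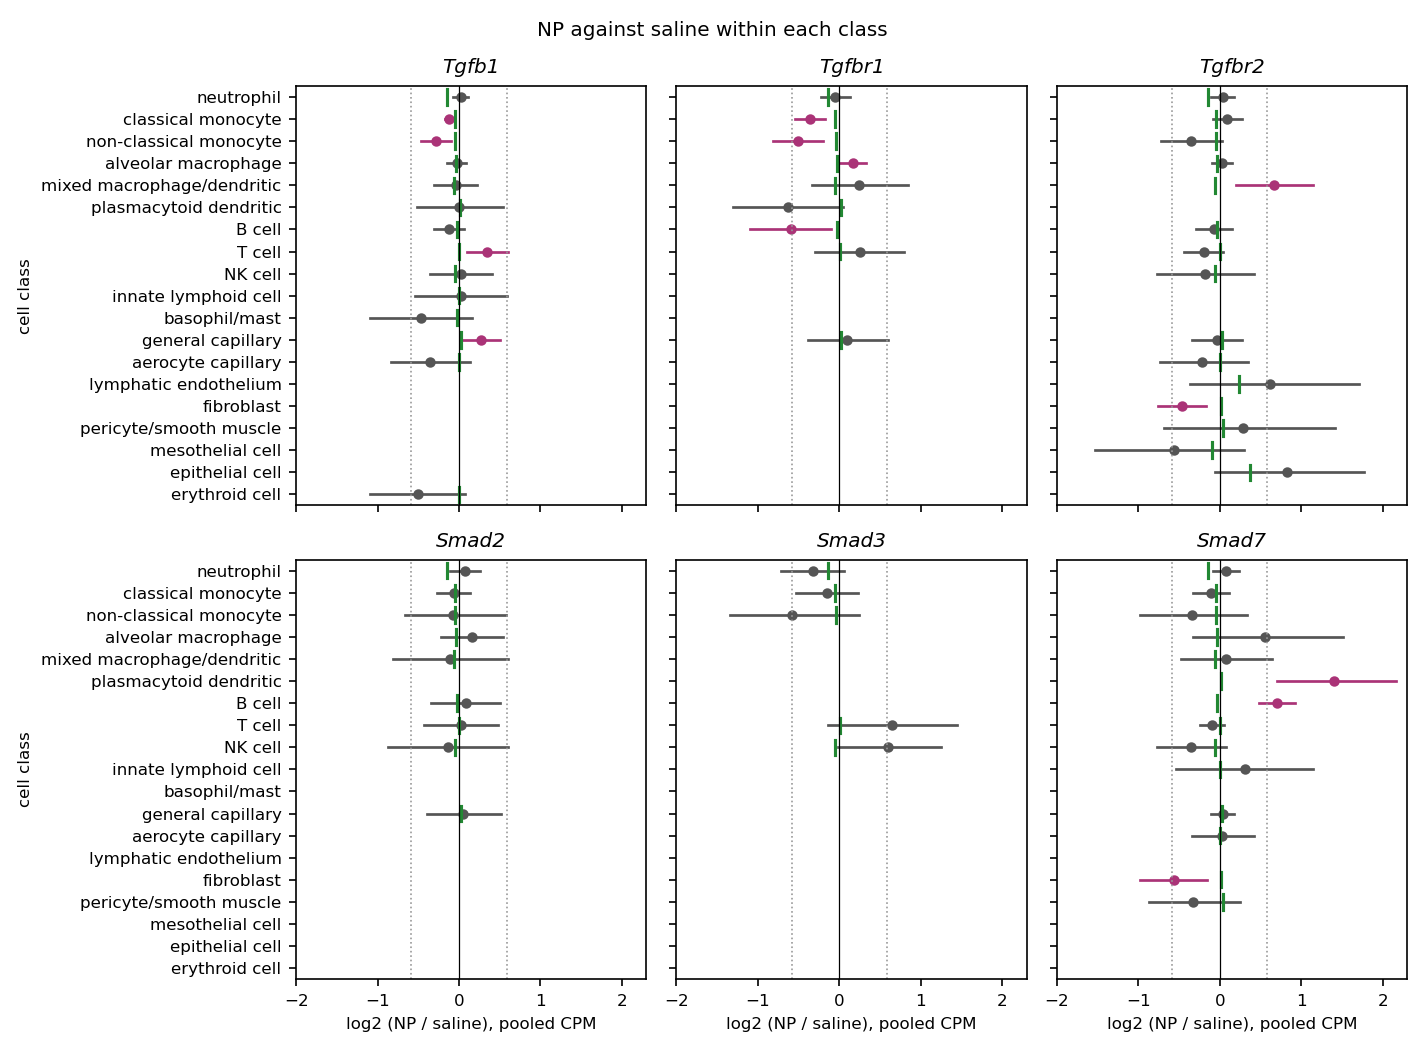
Log2 ratio of NP over saline (x axis) for 6 genes in each class (rows) with at least 50 UMIs; bars are 95% counting intervals, purple where they exclude 0, green ticks mark the median of all genes in that class and dotted lines 1.5-fold. Most bars cross 0, and the purple ones farthest out are Smad7 in plasmacytoid dendritic cells (1.40) and in B cells (0.70).

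In both kinds of monocyte Tgfb1 and Tgfbr1 were lower in NP by small ratios. In classical monocytes Tgfb1 was lower in NP by a log2 ratio of -0.12 (-0.17 to -0.06) and Tgfbr1 by -0.36 (-0.55 to -0.18), and 0 of 6 genes passed 1.5-fold (8.48% of all genes). In non-classical monocytes Tgfb1 was at -0.28 (-0.46 to -0.09) and Tgfbr1 at -0.51 (-0.81 to -0.21), again with 0 of 6 past the limit (15.8% of all genes). The median of all genes was -0.05 and -0.04 in these classes. The larger classical cluster, with 541 saline and 685 NP cells, held 37.4 and 22.7 CPM of Tgfbr1, a log2 ratio of -0.72 (-0.96 to -0.48), and the smaller one, with 138 and 426 cells, held 47.5 and 44.1 CPM, -0.11 (-0.44 to 0.24). With both kinds of monocyte pooled, the Tgfbr1 ratio was only -0.10 (-0.25 to 0.05), since non-classical cells carry more of it and went from 103 to 401 cells. Tgfbr2 in the pooled monocytes was at 0.16 (0.00 to 0.31), and at -0.06 with each cluster at its saline share. Neutrophil markers in classical monocytes summed to 8150 and 5737 CPM (4 of 16 higher in NP, none at 0) and interstitial macrophage markers to 5654 and 3203 CPM (5 of 10 higher, Folr2 at 0). Erythroid markers there summed to 773 and 106 CPM (0 of 7 higher, none at 0). In non-classical monocytes neutrophil markers summed to 8916 and 4755 CPM (3 of 16 higher, none at 0) and interstitial macrophage markers to 3421 and 1879 CPM (4 of 10 higher, none at 0). The part of these markers in the result was not tested.

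Smad7 was higher in NP in B cells and plasmacytoid dendritic cells. In B cells it was counted 270 times in saline and 473 times in NP, 78.1 and 127 CPM, a log2 ratio of 0.70 (0.48 to 0.92). Cells with a Smad7 UMI made up 33.4% of saline and 41.1% of NP B cells. The class held 3 clusters with other RNA mixed in, so the clean one was read alone. In the cluster of 409 saline and 530 NP B cells, Smad7 was at 108 and 169 CPM (208 and 415 UMIs), a log2 ratio of 0.64 (0.40 to 0.89), and neutrophil markers were at 2977 and 1397 CPM. The second cluster, 112 and 96 cells with 87924 and 74097 CPM of neutrophil markers, held 36.6 and 33.6 CPM of Smad7, -0.12 (-0.76 to 0.50). The third, 3 and 18 cells, also carried endothelial genes, and the ratio was 0.72 without it. Endothelial markers (49 genes) summed to 206 and 250 CPM in the clean cluster against 31738 and 32797 CPM in endothelium, where Smad7 itself was at 280 and 289 CPM. Tgfbr1 was lower in B cells, 24.3 against 16.1 CPM (84 and 60 UMIs), -0.60 (-1.10 to -0.10), and Tgfb1 in the clean cluster was at 179 and 152 CPM, -0.23 (-0.44 to -0.01). Smad7 and Tgfbr1 were the 2 of 5 genes past 1.5-fold in B cells, where 8.7% of all genes passed.

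Plasmacytoid dendritic cells were few but showed the largest Smad7 ratio of any class with enough UMIs. The 18 saline cells held 20 Smad7 UMIs and the 33 NP cells 105, 99.6 and 263 CPM, a log2 ratio of 1.40 (0.70 to 2.17). A Smad7 UMI was found in 10 of 18 saline cells (55.6%, 30.8% to 78.5%) and in 29 of 33 NP cells (87.9%, 71.8% to 96.6%), at medians of 10557.5 and 11625 UMIs per cell. In alveolar macrophages, the class with the least Smad7, the share was 8.38% of saline cells at a median of 17265 UMIs. Thinned to 1000 UMIs per cell, the shares in plasmacytoid dendritic cells were 11.1% (1.38% to 34.7%) and 24.2% (11.1% to 42.3%), which overlap. Neutrophil markers in these cells summed to 5301 and 1105 CPM and endothelial markers to 309 and 333 CPM, and their part in the result was not tested. Tgfb1 was level at 234 and 235 CPM, and Tgfbr1 was at 174 and 113 CPM, -0.63 (-1.30 to 0.05). The 2 of 3 genes past 1.5-fold, Smad7 higher and Tgfbr1 lower, compare with 14.7% of all genes there.

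T cells and NK cells differed less. In T cells Tgfb1 was at 75.5 and 96.2 CPM, a log2 ratio of 0.35 (0.10 to 0.60), and Smad7 at -0.09 (-0.25 to 0.06). Classical monocyte markers in the T cell class summed to 445 and 801 CPM (10 of 11 higher in NP, none at 0). Neutrophil markers there summed to 19871 and 10729 CPM (2 of 16 higher, none at 0) and erythroid markers to 1908 and 26.5 CPM (1 of 7 higher, none at 0). The part of these markers in the Tgfb1 value was not tested. Smad3 passed 1.5-fold in both, at 0.64 (-0.14 to 1.45) in T cells and 0.60 (-0.02 to 1.25) in NK cells, on 25 and 34 UMIs and on 33 and 68 UMIs, with intervals that hold 0. These were 1 of 6 genes in T cells (8.46% of all genes) and 1 of 5 in NK cells (11.8%).

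Fibroblasts held less Tgfbr2 and Smad7 per UMI in NP. Tgfbr2 was at 351 CPM in saline and 255 CPM in NP (184 and 208 UMIs), a log2 ratio of -0.46 (-0.76 to -0.17), and Smad7 at 185 and 125 CPM (97 and 102 UMIs), -0.57 (-0.98 to -0.15). Ltbp1 was level at -0.02 (-0.46 to 0.43). Neither lower gene passed 1.5-fold, so that 0 of 3 did (14.4% of all genes). With equal weight for each cell Tgfbr2 was at -0.17, and with coarser clusters Smad7 was at -0.04. Markers of other cells moved in the class too. Pericyte and smooth muscle markers summed to 288 and 704 CPM (12 of 14 higher in NP, Cnn1 at 0) and mesothelial markers to 1711 and 979 CPM (0 of 7 higher, with Msln, Upk3b, Lrrn4 and Gpm6a at 0). Neutrophil markers summed to 6602 and 13802 CPM (13 of 16 higher, none at 0) and aerocyte markers to 1074 and 2398 CPM (17 of 17 higher, none at 0). Their part in the result was not tested. In pericytes or smooth muscle cells 1 of 4 genes passed (27% of all genes), Tgfb2 at -0.88 (-1.76 to 0.07).

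The largest Tgfb2 ratio came from a handful of cells. In the mixed macrophage and dendritic cluster Tgfb2 had 28 UMIs in saline and 114 in NP, 31.8 and 86.2 CPM, a log2 ratio of 1.44 (0.83 to 2.09), Ltbp1 had 42 and 99 UMIs, 0.65 (0.12 to 1.21), and Tgfbr2 had 55 and 131 UMIs, 0.67 (0.20 to 1.15). These were 3 of 7 genes past 1.5-fold, against 15.3% of all genes. Closer clustering, again without the 9 genes, set apart 3 saline and 7 NP cells led by Prg4, Alox15 and Saa3. As background, Prg4 and Alox15 are known from macrophages of the body cavities. All Tgfb2 and Ltbp1 UMIs of the whole cluster lay in these 10 cells. The saline cells held 0, 12 and 16 UMIs of Tgfb2, and the NP cells 6, 9, 11, 13, 13, 30 and 32. Ltbp1 was counted 9, 12 and 21 times in the saline cells and 0, 9, 10, 14, 16, 17 and 33 times in the NP cells. So 2 of 3 saline cells and 7 of 7 NP cells carried Tgfb2, and the ranges of the groups overlapped for both genes.

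The rest of that cluster had neither gene. Among the cells with no UMI of Prg4 or Alox15, Tgfb2 and Ltbp1 were counted 0 times in 59 saline and 79 NP cells, which allows up to 3.71 and 2.56 CPM if a count of 0 is taken to allow 3 UMIs. The 4 saline and 7 NP cells with a UMI of either gene, a split chosen after the values were seen, held 19.0% of all saline and 34.2% of all NP Tgfb2 UMIs and 24.1% and 25.6% of the Ltbp1 UMIs. Without them the ratio over all cells was 0.99 (0.66 to 1.32) for Tgfb2 and 1.23 (0.92 to 1.54) for Ltbp1, and weighted to saline class shares 0.31 and 0.44. Tgfbr2 in the rest of the cluster was at 60.6 and 86.2 CPM, 0.51 (0.00 to 1.03). By sub-cluster, Tgfbr2 was lower in NP in the C1q-positive one of 13 saline and 30 NP cells, at 235 and 160 CPM (29 and 66 UMIs). Neutrophil granule genes were also among the leading genes of that sub-cluster, and their part was not tested. In the other sub-clusters Tgfbr2 was higher in NP, on 1 to 30 UMIs per library. How much of the ratio came from the shares of the sub-clusters was not tested. Across the whole saline and NP libraries 38.8% and 45.3% of Tgfb2 UMIs came from the 10 cells highest for it, against 1.77% and 1.43% for Tgfb1.

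**Figure D5:**
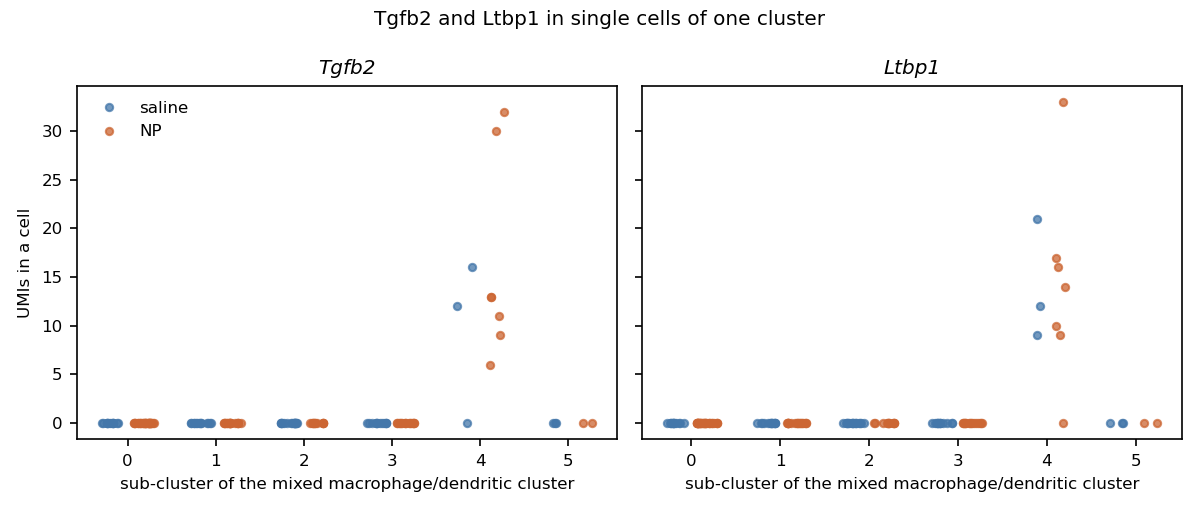
UMIs of Tgfb2 (left) and Ltbp1 (right) in each cell (points, saline and NP) of the mixed macrophage and dendritic cluster, by sub-cluster (x axis). Only sub-cluster 4, with 3 saline and 7 NP cells led by Prg4 and Alox15, has points above 0, up to 32 UMIs of Tgfb2 and 33 of Ltbp1.

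The remaining small classes gave few values. Tgfbr2 passed 1.5-fold in lymphatic endothelium at 0.61 (-0.36 to 1.71), where 36.5% of all genes did, and in epithelial cells at 0.83 (-0.05 to 1.77), where 39.2% did. It was 1 of 1 gene with enough UMIs in each, and both intervals hold 0. Innate lymphoid cells (2 genes), basophils or mast cells (1), aerocytes (3), mesothelial cells (2) and erythroid cells (1) had none past the limit, against 14.4%, 18%, 16.6%, 21.9% and 25.6% of all genes.

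The wider pathway was read from 6 lists of 67 other genes. In neutrophils 9 of the 42 genes with at least 50 UMIs were higher and 3 lower in NP, against 5.53% and 8.45% of all genes, with a median log2 ratio of 0.01 against -0.14. Among those with at least 200 UMIs, the highest were Sparc (2.18 and 4.59 CPM, 1.07), a matrix protein, Id3 (3.59 and 6.95 CPM, 0.95) and the repressors Tgif1 (0.75) and Tgif2 (0.71). The lowest were Acvr1b, an activin receptor (16.03 and 10.4 CPM, -0.62), and Klf10, an early TGF-beta target (34.9 and 24.4 CPM, -0.51). All but Klf10 of these passed 1.5-fold. Aerocyte markers in neutrophils summed to 31.2 and 69.6 CPM (15 of 17 higher, none at 0), general capillary markers to 79.98 and 106 CPM (17 of 18 higher, none at 0) and pericyte markers to 16.6 and 23.9 CPM (12 of 14 higher, Cnn1 at 0), and their part in these values was not tested. In pooled monocytes 7 of 39 were higher and 1 lower (5.72% and 3.76% of all genes). Taken apart, classical monocytes had 6 of 38 higher and 0 lower (4.71% and 3.77% of all genes), and non-classical monocytes 2 of 32 higher and 5 lower (7.83% and 7.97%). In the pooled cells Id2, an inhibitor of DNA binding that TGF-beta can repress or induce, was at 210 and 473 CPM (1.17), and Tgfbi, named for its induction by TGF-beta, was at 858 and 566 CPM (-0.60). No gene of its list of induced transcripts passed 1.5-fold downward within either kind of monocyte, and non-classical markers in the pooled cells summed to 1521 and 2385 CPM (11 of 11 higher, none at 0). Bhlhe40 (0.66), Nedd4l (0.78) and Eng (0.93) were among the higher ones of the pooled cells, and Fn1, a matrix protein that monocytes make, was at 760 and 587 CPM (-0.37). Of the other receptors and co-receptors, 1 of 6 was higher and 0 lower in classical monocytes (median 0.03). In non-classical monocytes 0 of 4 were higher and 3 lower (median -0.87). Of the inhibitors, 1 of 10 was higher and 0 lower in classical monocytes, and 1 of 9 higher and 2 lower in non-classical monocytes.

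In endothelium 1 of 55 list genes was higher and 5 lower (5.1% and 4.91% of all genes). The higher one was Pmepa1, a feedback inhibitor, at 27.6 and 54.7 CPM (0.99, 0.59 to 1.41). Tgfbi (101 and 59.6 CPM, -0.76) and Ccn2 (49.2 and 29.4 CPM, -0.74), both known targets, were lower. They were 2 of 13 induced transcripts with enough UMIs, whose median was -0.10. Cdkn2b (0.48, 0.06 to 0.93) and Cdkn1a (0.23, 0.12 to 0.35) of that list were higher in NP without passing 1.5-fold. Of 7 matrix and contractile genes 3 were lower. The receptors Eng (0.17) and Bmpr2 (0.19) and the inhibitor Smad6 (0.14) did not pass 1.5-fold. Neutrophil markers in endothelium summed to 65983 and 26996 CPM (0 of 16 higher, none at 0), interstitial macrophage markers to 491 and 303 CPM (6 of 10 higher, Folr2 at 0) and pericyte markers to 206 and 157 CPM (3 of 14 higher, Cnn1 and Lmod1 at 0), and their part in these values was not tested. In B cells 6 of 31 were higher and 2 lower (3.14% and 5.56% of all genes). The 2 lower ones were Tgfbi at 48.0 and 17.1 CPM (-1.49) and Cdkn1a, a cell-cycle inhibitor, at 39.1 and 23.0 CPM (-0.76). Both are in the list of induced transcripts, whose 9 genes with enough UMIs had a median of 0.28. Id2 (0.40) and Bhlhe40 (0.41) of that list were higher in NP without passing 1.5-fold. Neutrophil markers in B cells summed to 40082 and 23755 CPM (3 of 16 higher, none at 0), T cell markers to 129 and 68.9 CPM (0 of 14 higher, none at 0) and mesothelial markers to 69.5 and 24.6 CPM (1 of 7 higher, Msln and Wt1 at 0). The 3 receptor genes among the 6 moved with endothelial markers, of which 18 of 18 general capillary ones were higher in NP (196 and 507 CPM, none at 0), and the part of all these markers was not tested. In T cells 6 of 33 were higher and 0 lower (4.63% and 3.84% of all genes). Cdkn1a was at 27.1 and 60.1 CPM (1.15), Bhlhe40 at 34.8 and 66.1 CPM (0.93) and Fn1 at 15.7 and 63.3 CPM (2.01). Of 10 induced transcripts with enough UMIs 4 were higher, with a median of 0.37. Tgfbi (-0.38, -0.70 to -0.07) and Rhob (-0.33, -0.61 to -0.05) of that list were lower in NP without passing 1.5-fold. Markers of dividing cells summed to 55.4 and 223 CPM in the same class (9 of 9 higher, none at 0). The higher classical monocyte markers and the lower neutrophil and erythroid markers were given above, and Fn1 was at 760 and 587 CPM in monocytes. The part of these markers in the T cell values was not tested.

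In fibroblasts 8 of 47 were higher and 5 lower (7.42% and 7.01% of all genes). The microfibril gene Fbn1 was at 490 and 242 CPM (-1.02, -1.29 to -0.74), Col3a1 at 1674 and 901 CPM (-0.89), Mmp2 at 385 and 246 CPM (-0.65) and Col1a1 at 931 and 634 CPM (-0.55), and the contractile gene Tagln was at 147 and 267 CPM (0.86). The feedback inhibitor Pmepa1 was at 597 and 448 CPM (-0.41), in the same direction as Smad7. Neither Pmepa1 nor Col1a1 passed 1.5-fold. In the list of inhibitors and feedback genes 0 of 8 passed, with a median log2 ratio of 0.01. Of 12 induced transcripts 3 were higher and 2 lower (median 0.20). Of 11 matrix and contractile genes 3 were higher and 2 lower (median -0.33). Fibroblast markers, which include Col3a1 and Col1a1, summed to 43875 and 36559 CPM in the class (6 of 15 higher, none at 0). Tagln is itself one of the pericyte and smooth muscle markers, whose higher sum in NP was given above. The part of these markers in the list values was not tested. Beside the pathway lists, 14 of 14 genes of an interferon-response list passed 1.5-fold upward in neutrophils, monocytes and endothelium (5.53%, 5.72% and 5.1% of all genes). In B cells 9 of 14 did, in T cells 6 of 14 and in fibroblasts 4 of 8 (3.14%, 4.63% and 7.42% of all genes). The medians were 2.49, 1.20, 1.71, 0.71, 0.47 and 0.72 in the same order of classes. In a list of 12 dissociation-stress genes, 1 was higher in neutrophils, 2 in endothelium, 4 in T cells and 1 in fibroblasts, against the same upward shares. Downward, 1 passed in monocytes and 1 in fibroblasts (3.76% and 7.01% of all genes). In B cells 0 passed in either direction (8.7% of all genes).

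The genes most like each member were found from Pearson's r of log2(CPM + 1) over 36 profiles, 1 for each class in each library with at least 100000 UMIs, among 11828 genes. The profiles share libraries and depth, so the values are a description. Tgfb1 was close to Pitpna (0.88) and Mob1a (0.84), Tgfbr1 to Gas2l3 (0.83), Mfsd12 (0.83) and Ctsb (0.79), and Tgfbr2 to Impact (0.89), Tuba1b (0.80) and Esyt2 (0.77). Smad7 was nearest to Arap2 (0.87), Grap (0.85) and Arl2bp (0.81), Smad2 to Exoc2 (0.85), Fen1 (0.81) and Utp18 (0.79), and Smad3 to Pxylp1 (0.67), Mmgt2 (0.66) and Dlg4 (0.65). Tgfb2 was nearest to Arhgef40 (0.84), Lhfpl2 (0.83) and Dennd2a (0.82), Tgfb3 to Dmpk (0.86), Gm14964 (0.85) and Kank2 (0.85), and Ltbp1 to Ptgis (0.88), Fhl1 (0.83) and Ackr3 (0.82). Within the family, Ltbp1 was at 0.72 with Tgfb2 and 0.64 with Tgfb3, and the ligands Tgfb1 and Tgfb3 were at -0.58. The receptors Tgfbr1 and Tgfbr2 were at 0.37.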

How the data were processed

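Single-cell RNA was captured and barcoded on the 10x Genomics platform from 1 lung pool per group. The deposited files were raw UMI counts per gene and barcode, made by the authors with bcl2fastq and Cell Ranger (6.0 in the submitters' processing notes) on mm10, with all barcodes kept. Barcodes with 500 to 5000 genes and under 7.5% mitochondrial counts were kept. Cells were scaled to 10000 counts and clustered with scanpy 1.11.5 on 2000 variable genes, 30 components and 20 neighbors (leidenalg 0.10.2, resolution 1), without the 9 genes and the pathway lists, and clusters were named from marker lists. UMIs were summed per class and library. Ratios carry exact conditional binomial, levels Poisson and shares Clopper-Pearson intervals (scipy 1.17.1) at 95%, and counts under 3 were set to 3 in a ratio. These covered counting error only. They were tried on counts simulated as Poisson, as the intervals assume. Such counts leave out uneven UMIs between cells and differences between mice, so the simulation cannot show that the intervals are wide enough here. There was 1 library per group, so no test between groups was made. Doublets were left in. The doublet caller Scrublet marked 1 saline cell, too few to be a working call, and a shared threshold was used as an alternative.

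The 9 genes and all lists were chosen with earlier results of these data known. Named genes of each list are the 2 highest and 2 lowest ratios among genes with at least 200 UMIs in a class, of which the text gives a part, and the 3 genes most like each member. One gene is not reported here. Marker genes of other cell types, named beside results, came from the same marker lists. Positions came from the GENCODE vM21 annotation of GRCm38, matched by gene identifier.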

Additional observations from a re-analysis of the deposited data

Results flagged for a closer look

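Some genes had intervals above 0 in one class and below 0 in another under the same contrast of NP with saline. The difference of the log2 ratios was not tested in any of them, since each class was a single library per group. The ratio of Tgfb1 was 0.63 higher in T cells (0.35) than in non-classical monocytes (-0.28), among 14 classes with enough UMIs. For Tgfbr1, alveolar macrophages (0.17) and B cells (-0.60) were 0.76 apart, and the alveolar macrophage value turned to -0.067 at a mitochondrial limit of 5%. Tgfbr2 had a gap of 1.13 between the mixed macrophage and dendritic cluster (0.67) and fibroblasts (-0.46). The C1q-positive sub-cluster of that mixed cluster went the other way, with Tgfbr2 at 235 and 160 CPM (29 and 66 UMIs). Neutrophil granule genes were also among its leading genes, and their part was not tested. Smad7 had the widest gap of the 4, 1.97 between plasmacytoid dendritic cells (1.40) and fibroblasts (-0.57).

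The barcodes with fewer than 50 UMIs, which were used in no comparison, held 1038 UMIs of the 9 genes in saline and 1542 in NP. Tgfb1 was at 130 and 190 CPM there and Smad7 at 27.1 and 38.2 CPM. The share of class UMIs estimated to come from such free RNA was between 0.522% and 3.76% over the classes examined. It was taken from epithelial secretory genes alone (Scgb1a1, Sftpc, Sftpa1, Sftpb and Scgb3a2), so it sets no limit on RNA from other cell types. Neutrophil markers summed to 65983 and 26996 CPM in endothelium and to 40082 and 23755 CPM in B cells. In neutrophils they summed to 332942 and 350786 CPM.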

How the results depend on the processing

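For 44 ratios, 551 values under other settings were computed: 495 lay inside the counting interval of the reported value, 42 outside it, and 14, of ratios whose interval excluded 0, had the other sign. Of 140 values for 14 levels, 108 stayed inside and 32 did not. The ratios of Smad7 in B cells (0.49 to 0.73), Smad7 in plasmacytoid dendritic cells (1.296 to 1.40) and Tgfb2 in the mixed cluster (1.44 to 1.69) kept their direction under every setting that gave a value. Tgfb2 there had no value without the cells with Prg4 or Alox15, which leave 0 UMIs, nor with pathway genes in the clustering, a minimum of 200 genes or the 5% limit. The log2 ratio of Tgfb1 in neutrophils, 0.02, became -0.11 with a minimum of 800 genes, -0.15 at resolution 2, 0.16 after scaling to the median of all genes and -0.18 with clusters at their saline shares. With clusters at their saline shares, Tgfb1 in classical monocytes was -0.20, Tgfbr1 there -0.55 and Tgfbr2 in pooled monocytes -0.060. Classes from the highest marker score of each cell gave -0.56 for Tgfbr1 in classical monocytes. Smad7 in general capillary cells was 0.24 with a minimum of 800 genes and 0.32 at a mitochondrial limit of 5%, where Tgfbr1 in alveolar macrophages was -0.067 and Tgfb1 over all cells 0.56. Equal weight for each cell gave -0.17 for Tgfbr2 in fibroblasts and 0.33 for Tgfb1 over all cells. Scaling to the median gave 0.12 for Tgfb1, -0.090 for Smad2 and -0.13 for Smad3 over all cells, and a total without mitochondrial, ribosomal, hemoglobin, S100a8 and S100a9 counts gave 0.43 for Tgfb1. At saline and at NP class shares the all-cell ratios were -0.056 and -0.086 for Tgfb1, -0.27 and -0.075 for Tgfb3, -0.091 and -0.15 for Tgfbr1, -0.016 and -0.026 for Tgfbr2, and -0.082 and -0.11 for Smad3. At 2-fold, pathway genes past the limit were 3 in neutrophils, 2 in monocytes and 0 in endothelium, against 12, 8 and 6 at 1.5-fold. The share of all genes past 2-fold was not computed. The cause of the differences between settings was not tested. Removing doublets called per library was not run, and the shared threshold (229 saline and 311 NP cells) was chosen after seeing the data, as were the alternatives that drop single clusters or the Prg4 and Alox15 cells. The 5% limit gave no value for plasmacytoid dendritic cells either. No paired analysis was possible because there was 1 library per group. Depth limits Tgfb2, Tgfb3, Ltbp1 and Smad3, with 100 to 514 UMIs in a library.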
